A study of Mus musculus with 8 samples.

Results

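Of the 24112 genes in the deposited tables, 78 had a symbol of the form Mrpl or Mrps followed by a digit, the names of the mitochondrial ribosomal proteins. They comprised 49 genes of the large subunit (Mrpl) and 29 of the small subunit (Mrps), and 0 were dropped as pseudogenes. The choice used the symbol alone and no expression value. RNA was measured in LSK cells (lineage-negative, Sca1+, Kit+), the bone marrow fraction that holds blood stem cells and early progenitors. There were 4 libraries from mice reconstituted with Vav-Cre+ marrow, called WT here, and 4 from mice reconstituted with Traf6-/-;Vav-Cre+ marrow, called KO, all on C57BL/6 and all after transplantation. Vav drives Cre throughout blood cells, both groups carry the Cre, and the labels state neither age, sex, how many host cells remained nor whether each library came from its own mouse, so the p-values measure only the spread between these libraries. The comparison asks how loss of Traf6, a ubiquitin ligase that relays Toll-like and interleukin-1 receptor signals to NF-κB, goes with RNA levels in these cells.

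The mitochondrial ribosome translates the few messenger RNAs of the mitochondrial genome, all of which encode core subunits of the respiratory chain and ATP synthase. Its RNAs are made in the mitochondrion, but all of its proteins are encoded in the nucleus, made in the cytosol and imported. The small subunit decodes the message, and the large subunit joins the amino acids. Blood stem cells are known for a low reliance on mitochondrial respiration, which increases as they commit to differentiation. Some symbols do not match the place of the protein: the products of Mrps30 and Mrps18a sit in the large subunit, Mrps36 is now counted with the oxoglutarate dehydrogenase complex, and Mrpl58 is a peptidyl-tRNA hydrolase that became part of the large subunit. All counts and medians by subunit follow the symbols, so Mrps30, Mrps18a and Mrps36 are counted with the small subunit.

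The depth of the libraries was estimated from the steps between low values at 19.2 to 30.8 M reads in genes (M, mega), highest in KO1 and KO2. The number of genes above 0 did not follow it: 9055 in KO3, 10674 in KO4 and 11169 in WT2, against 12754 to 13689 in the other 5 libraries. These 3 libraries also stood apart in a principal component analysis, so results that rest on them are given with and without them. KO3 and KO4 carry lane 5 in their labels and the other 6 libraries lane 4, which makes lane and part of the KO group inseparable. Traf6 had 3.52 to 14.9 RPKM (reads per kilobase of transcript, scaled to library size) in the WT libraries and 0.818 or less in the KO libraries (log2 difference -2.75 ± 0.53, limma adjusted p = 0.341). The LSK and stem cell markers Cd34, Flt3, Kit, Ly6a and Procr were above 0 in all 8 libraries, while Slamf1 was at 0 in WT2, KO3 and KO4. These 6 all had a negative difference, among them Flt3 at -0.80 and Procr at -1.27 (limma adjusted p = 0.507 and 0.515). Their part in the results below was not tested. Summed levels of 6 myeloid progenitor genes (Mpo, Elane, Prtn3, Ctsg, Cebpa and Csf1r) were 589.5 to 1790 RPKM in WT libraries and 2058 to 7627 in KO, highest in KO1 and KO2. Of the 6, 4 were higher in every KO library, as were 2.05% of all genes tested. Elane and Prtn3 overlapped, at 227.8 and 376.3 RPKM in KO4 against 306.9 and 432 in WT4. Of 4 B cell markers only Cd79b was above 0 in every library (4.78 to 16.3 RPKM), and Cd79a and Ms4a1 were at 0 in all 8. Of 3 markers of stroma and endothelium Pecam1, which stem cells and megakaryocytes also express, had 9.25 to 26.3 RPKM and Col1a1 was at 0 throughout. Summed levels were 88.0 to 225.3 RPKM in WT and 92.5 to 207.4 in KO for 7 erythroid and megakaryocyte genes, at most 4.28 RPKM for 4 T cell genes, and at most 6.38 in WT and 35.8 in KO for 3 granulocyte and macrophage genes.

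Promoters are shown first because many genes of the mitochondrial ribosome share short sites near their starts, which are known to bind ETS factors such as GABP, YY1 or NRF1. RefSeq windows of 300 bases, from 250 before to 50 after a transcript start (build GRCm38.p6), were found for 69 of the 78 genes, in 75 windows. The ETS letters CCGGAAG, searched on both strands like all motifs here, occurred in 26 of the 75 windows (34.7%), against 18.6% of the windows of genes tested and 8.86% of all promoters. The YY1 letters AAGATGGC occurred in 12 windows (16%), against 4.69% and 2.75%. The NRF1 letters GCATGCGC occurred in 8 windows (10.7%), against 5.35% and 2.71%. At least 1 of these 3 motifs was present in 38 windows (50.7%), against 26.2% and 13.3%, and no match shared bases with a match of another motif.

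The 2 subunits carried these motifs at similar total shares, 24 of 48 large subunit windows (50%) and 14 of 27 small subunit windows (51.9%). ETS letters stood in 31.2% of the large and 40.7% of the small subunit windows, YY1 letters in 12.5% and 22.2%, and NRF1 letters in 14.6% and 3.7%, the last being 1 of 27. The E-box CACGTG, which MYC and other factors bind, was in 9.33% of the 75 windows against 10.2% of those of genes tested. TATAAA was in 6.67% against 7.05%. The windows held a median of 21 CpG dinucleotides against 20 for genes tested and 7 for all promoters, a count close to that of the other genes tested. The matches were not spread evenly: 22 of 31 ETS matches lay within 50 bases of the start, and 8 of 12 YY1 matches began after it. A match is a description of letters and not of binding.

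Promoters of 4 genes show the classes, each written 5′ to 3′ on the strand of its gene, with motif matches on either strand in capitals. Mrpl43 (chr19:45006393-45006692, minus strand), the gene with the smallest p in the genotype comparison, has a pair of ETS matches. Mrps23 (chr11:88204138-88204437, plus strand), whose groups did not overlap, has its only match, an ETS site on the opposite strand, after the start. Mrps11 (chr7:78782881-78783180, plus strand) has YY1 letters on the opposite strand. Mrpl32 (chr13:14612988-14613287, minus strand), chosen after the search because it holds the most matches, has a YY1 match and NRF1 letters at 3 places, at 1 of which matches on both strands overlap.
Mrpl43: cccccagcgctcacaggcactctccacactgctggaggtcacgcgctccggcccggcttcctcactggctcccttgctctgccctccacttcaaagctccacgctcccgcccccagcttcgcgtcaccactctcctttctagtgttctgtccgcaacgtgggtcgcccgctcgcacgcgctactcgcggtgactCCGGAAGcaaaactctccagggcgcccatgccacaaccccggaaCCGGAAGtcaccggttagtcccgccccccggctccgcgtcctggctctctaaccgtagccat
Mrps23: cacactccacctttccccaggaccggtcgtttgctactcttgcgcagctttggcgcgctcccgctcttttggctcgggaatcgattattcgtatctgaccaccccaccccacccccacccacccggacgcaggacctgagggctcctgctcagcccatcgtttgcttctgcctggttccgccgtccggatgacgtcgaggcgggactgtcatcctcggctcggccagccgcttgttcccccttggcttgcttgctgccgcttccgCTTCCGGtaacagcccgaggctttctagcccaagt
Mrps11: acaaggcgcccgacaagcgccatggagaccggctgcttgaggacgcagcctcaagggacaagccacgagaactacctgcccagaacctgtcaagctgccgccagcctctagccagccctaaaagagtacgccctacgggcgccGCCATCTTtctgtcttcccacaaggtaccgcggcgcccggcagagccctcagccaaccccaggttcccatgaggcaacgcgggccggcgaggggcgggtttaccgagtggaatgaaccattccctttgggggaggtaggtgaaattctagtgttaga
Mrpl32: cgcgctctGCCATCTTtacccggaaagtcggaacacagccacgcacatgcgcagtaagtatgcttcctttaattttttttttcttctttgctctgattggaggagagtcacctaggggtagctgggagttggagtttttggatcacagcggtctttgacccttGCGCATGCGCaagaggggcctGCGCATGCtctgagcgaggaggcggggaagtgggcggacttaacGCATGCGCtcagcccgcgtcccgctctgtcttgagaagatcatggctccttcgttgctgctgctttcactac

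Many of these genes also began close to a neighbour on the other strand. Of the 69 genes with a window, 23 (33.3%) had an opposite start within 500 bases, against 18.5% of genes tested and 10.9% of all genes in the promoter table. The large subunit had 16 of 43 (37.2%) and the small subunit 7 of 26 (26.9%). Partners included other mitochondrial genes. Mrpl46 and Mrps11, 1 gene of each subunit, began 42 bases apart. Mrpl43 began 116 bases from Twnk, which encodes the mitochondrial DNA helicase, and Mrps12 began 147 bases from Sars2, the mitochondrial seryl-tRNA synthetase. Mrpl49 began 192 bases from Fau, which encodes a cytosolic ribosomal protein, and Mrpl47 308 bases from Ndufb5, a complex I subunit. Mrpl43 and Twnk had log2 differences between the genotypes of 0.86 and -0.19, and Mrps11 and Mrpl46 of 1.57 and 0.32. Whether counting used the strand is not given in the sources used here.

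In WT cells the 78 genes were expressed at moderate levels. The median over genes of the WT mean was 22.3 RPKM in the large subunit (quartiles 13.4 and 46.2, range 3.88 to 118.7) and 21.7 RPKM in the small subunit (quartiles 13.2 and 26.2, range 0.888 to 69.5), against 12.67 RPKM over the 11276 genes tested. RPKM is scaled to transcript length so that genes can be compared, but values at 0 still differed by length. In WT2, 9.07% of genes under 1 kb were at 0, against 0.40% from 2 kb. Both shares are of genes with a mean of 10 to 200 RPKM in the other libraries. The ends of the small subunit range were Mrps36 and Mrps30, which are placed there by symbol only. The medians were close, while 10 of 49 large subunit genes and 3 of 29 small subunit genes had a mean over all libraries above 50 RPKM. Mrps30 was 1 of the 3. All 78 passed the filter for testing, at least 1 RPKM in at least 4 of 8 libraries, and 43 of them (28 large, 15 small) reached 1 RPKM in every library. The median length of their longest transcript linked to RefSeq was 1253 bases, against 2992 over all genes tested.

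**Figure D1:**
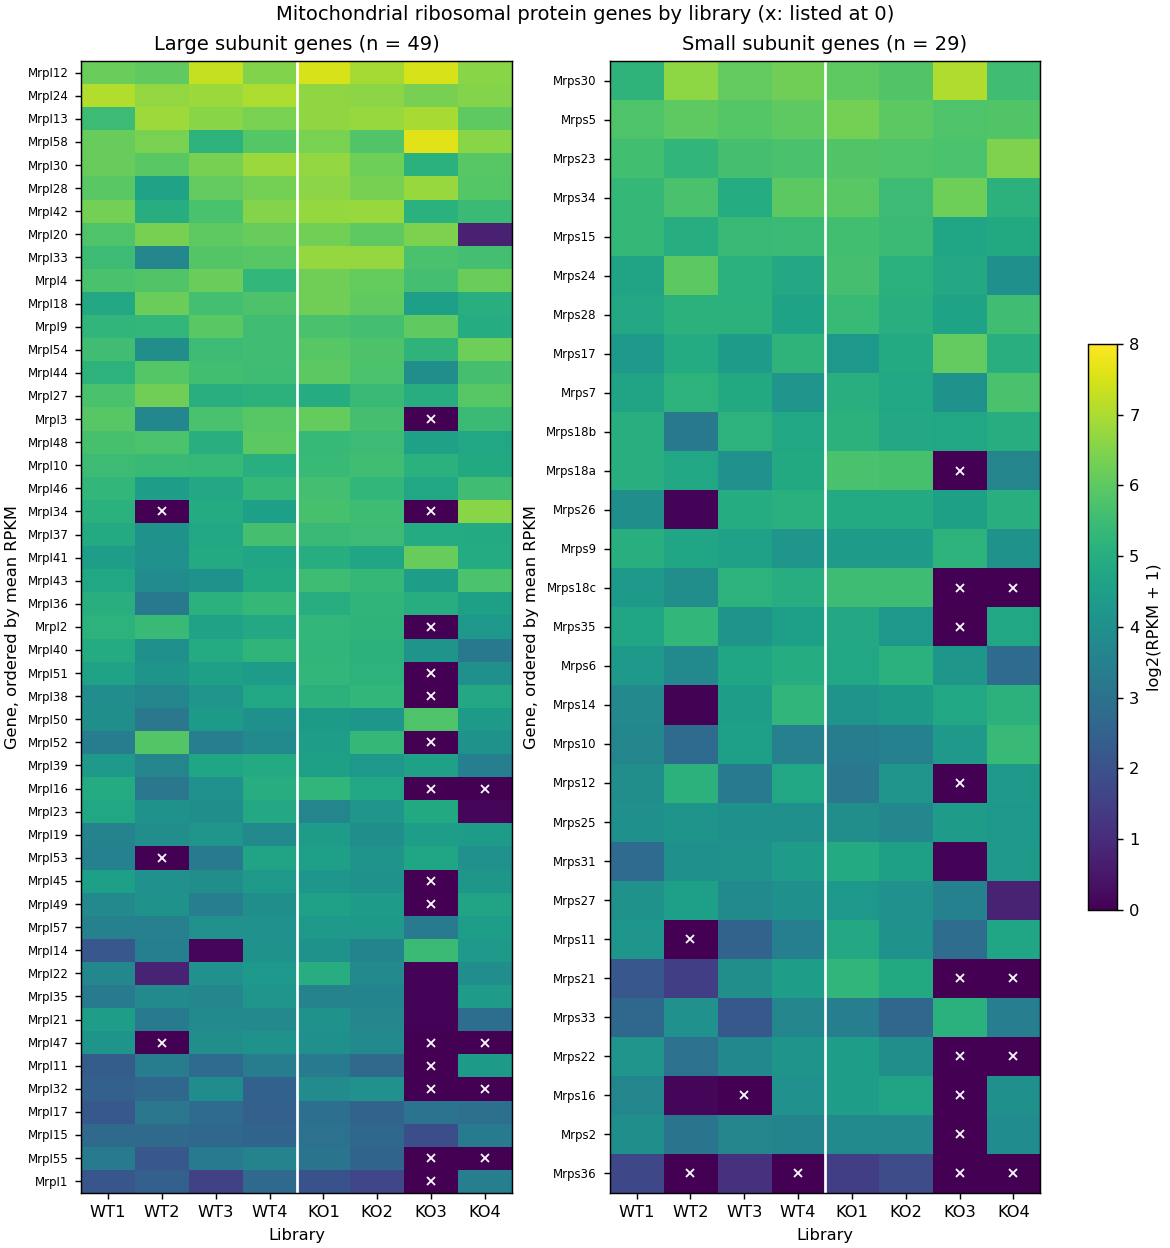
Heatmap of log2(RPKM + 1) in the 4 WT and 4 KO libraries (columns) for the 49 large and 29 small subunit genes (rows, by falling mean RPKM); crosses mark values listed at 0. The crosses gather in the KO3 column, with 23 of 78 genes, and in KO4, with 8.

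The highest levels belonged to Mrpl12, Mrpl24 and Mrpl13 in the large subunit. Mrpl12, which forms the stalk of the large subunit and also binds the mitochondrial RNA polymerase, had 72.4, 64.9, 154.7 and 89.5 RPKM in WT1 to WT4 and 182, 121, 183 and 94.4 in KO1 to KO4. Its KO values reached higher, but KO2 and KO4 lay below WT3 and the groups overlapped (95.4 ± 40.9 against 145.1 ± 44.5, SD, n = 4). Mrpl24 had 134.8, 102.8, 109.8 and 127.5 RPKM in WT and 100.9, 97.1, 80.6 and 91.4 in KO. Every KO value of Mrpl24 was below every WT value. Mrpl13 stood at 83.7 ± 28.9 RPKM in WT and 98.9 ± 25.3 in KO, with overlapping groups. WT1, at 44.0 RPKM, was the lowest library of Mrpl13, and WT2 and KO3, at 112 and 122.1, were the highest.

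Mrps30, Mrps5 and Mrps23 led the genes named for the small subunit. Mrps5, a core small subunit protein with a bacterial counterpart, was steady, at 54.9, 64.0, 58.8 and 64.2 RPKM in WT and 79.0, 62.3, 54.3 and 55.6 in KO. Mrps30, whose product sits in the large subunit, ranged more widely, at 69.5 ± 26.5 RPKM in WT and 74.5 ± 39.0 in KO, with KO3 alone at 131.9. Mrps23 had 47.0, 37.6, 48.8 and 50.7 RPKM in WT and 55.7, 55.0, 51.7 and 86.2 in KO, all KO values above all WT values.

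At the other end, Mrpl1 had 3.88 ± 1.6 RPKM in WT, Mrpl55 7.86 ± 3.12 and Mrpl15 5.56 ± 0.396. Mrpl15, with 5.01 to 5.86 RPKM in WT, was among the steadiest genes. Mrps36 was the lowest of all: 2.34, 0, 1.21 and 0 RPKM in WT and 1.78, 2.51, 0 and 0 in KO. It reached 1 RPKM in exactly 4 libraries, the fewest the filter allows. Mrps2 had 11.3 ± 3.08 RPKM in WT. Mrps16, a small subunit protein with a bacterial counterpart, had 11.7, 0.0917, 0 and 15.6 RPKM in WT, so WT2 and WT3 lay at or near 0.

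The 3 genes of the Mrps18 family are paralogs whose products take different places, that of Mrps18a in the large subunit and those of Mrps18b and Mrps18c in the small subunit. Their WT means were alike, at 25.4 ± 6.79, 25.2 ± 11.8 and 24.8 ± 9.96 RPKM. In KO1 and KO2 the values were 51.3 and 50.3 RPKM for Mrps18a, 34.3 and 27.6 for Mrps18b, and 44.3 and 44.7 for Mrps18c. In KO3 and KO4 Mrps18a had 0 and 11.6 RPKM and Mrps18c 0 in both, whereas Mrps18b had 26.4 and 30.3. The KO group of 2 of the 3 paralogs was thus split by lane, both libraries of lane 4 above and both of lane 5 below every WT library.

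The spread between libraries of 1 group was wide. The median SD of log2(RPKM + 1) over the WT libraries was 0.50 for the large and 0.56 for the small subunit genes, against 0.40 over all genes tested. The steadiest small subunit genes included Mrps25, with 15.1 to 16.8 RPKM in WT, and the least steady were Mrpl34 (33.7, 0, 29.3 and 22.1 RPKM), Mrps26 (14.8, 0.0540, 30.3 and 33.0) and Mrps14 (12.6, 0.0264, 20.8 and 37.5). In all 3 the low library was WT2.

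With all 8 libraries, no gene of the mitochondrial ribosome passed the test between the genotypes. limma on log2(RPKM + 1) called 0 of the 78 at a Benjamini-Hochberg adjusted p under 0.05, and 0 of all 11276 genes (0%). At an unadjusted p under 0.05, 2 of the 78 were higher in KO, against 2.77% of all genes, and 0 were lower, against 4.74%. The smallest adjusted p among them was 0.634. In bulk RNA, fewer cells of a type and less RNA per cell cannot be told apart.

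The 2 genes under that unadjusted threshold both belong to the large subunit. Mrpl43 had 26.6, 13.5, 16.2 and 27.9 RPKM in WT and 45.2, 39.3, 20.7 and 52.3 in KO. KO1, KO2 and KO4 were above every WT library, and KO3 lay within the WT range. Its log2 difference (KO minus WT) was 0.86 ± 0.34 (SE), limma adjusted p = 0.634. Mrpl14, a large subunit protein with a bacterial counterpart, had 3.53, 9.95, 0.0830 and 16.3 RPKM in WT and 15.7, 11.3, 42.9 and 18.6 in KO. Its log2 difference was 1.89 ± 0.80 (limma adjusted p = 0.645). WT3 was near 0 and KO3 was the highest library, and KO1 and KO2 lay within the WT range.

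Groups without overlap, 4 libraries against 4, were found for 1 gene in each direction. Mrps23 was higher in every KO library, with a log2 difference of 0.40 ± 0.22 (limma adjusted p = 0.684), where 2.05% of all genes tested showed that pattern. Mrpl24 was lower in every KO library, with a log2 difference of -0.35 ± 0.17 (limma adjusted p = 0.665), where 3.88% did. A single gene of 78 is a smaller share than either of these.

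**Figure D2:**
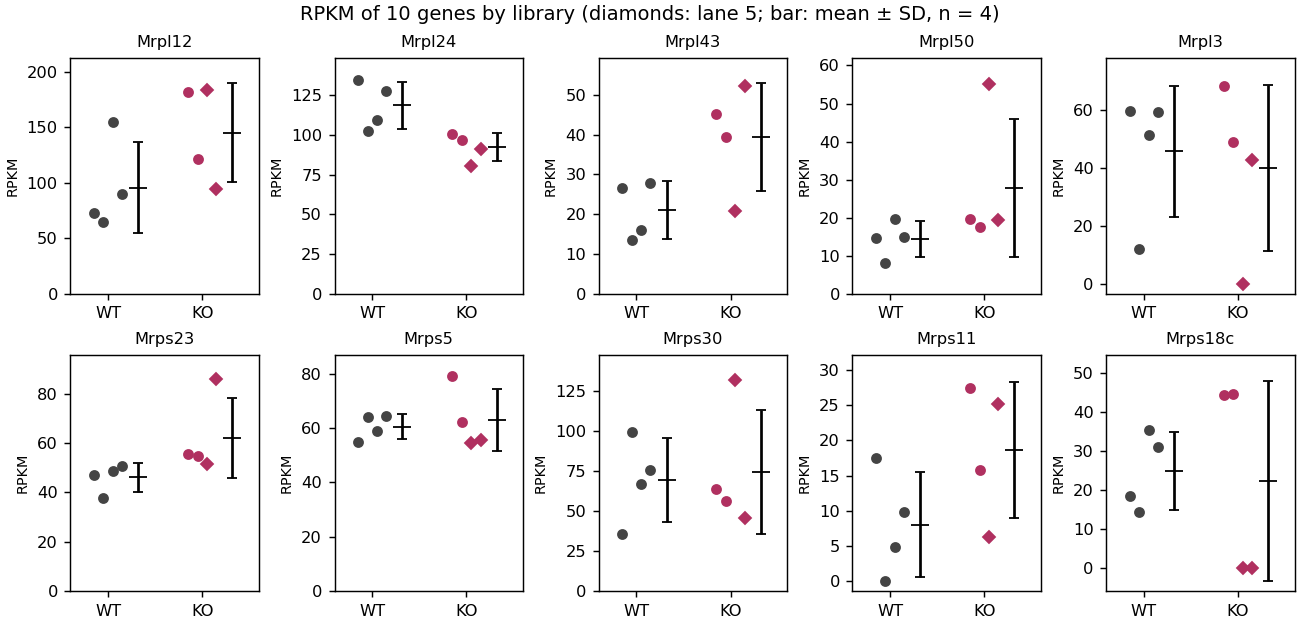
RPKM of 10 genes in each library, WT in grey and KO in red, with diamonds for lane 5 and bars for the mean ± SD (n = 4). Mrpl24 and Mrps23 show no overlap between groups, while Mrpl3 and Mrps18c have KO values at 0 in lane 5 only.

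Over each subunit the differences centred near those of all genes. The median log2 difference was -0.15 for the 49 large subunit genes (22 positive) and 0.04 for the 29 small subunit genes (16 positive), against -0.14 over all genes tested. Relative to all genes these were -0.01 and 0.18. The spread within a subunit exceeded the distance between subunits, from -1.77 (Mrpl16) to 1.89 (Mrpl14) in the large and from -1.85 (Mrps18c) to 1.57 (Mrps11) in the small subunit. As a whole, 38 of 78 differences were positive (48.7%), against 39.0% of all genes tested.

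Among the genes of the small subunit with the smallest p, higher values in KO were led by Mrps11, Mrps23, Mrps26 and Mrps14, and lower ones by Mrps22, Mrps12, Mrps27 and Mrps18c. Mrps11, a small subunit protein with a bacterial counterpart, had 17.4, 0, 4.78 and 9.85 RPKM in WT and 27.4, 15.8, 6.24 and 25.2 in KO, a log2 difference of 1.57 ± 0.84 (limma adjusted p = 0.684). WT2 at 0 was its lowest library. Mrps22 had 6.83 to 16.9 RPKM in WT libraries and 21.5, 14.3, 0 and 0 in KO (-1.64 ± 1.03, limma adjusted p = 0.708). Mrps12 had 8.81 to 34.4 RPKM in WT libraries and 8.29, 16.9, 0 and 18.5 in KO, with KO1 and KO3 below every WT library (-1.38 ± 0.89, limma adjusted p = 0.715).

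In the large subunit the lower genes of smallest p were Mrpl24, Mrpl55, Mrpl48 and Mrpl21. Mrpl48 had 50.3, 52.3, 31.8 and 62.1 RPKM in WT and 40.1, 44.1, 23.0 and 26.01 in KO, with KO3 and KO4 below all others (-0.56 ± 0.29, limma adjusted p = 0.678). Mrpl55 was at 0 in KO3 and KO4 and at 7.44 and 4.98 RPKM in KO1 and KO2, within its WT range of 3.46 to 10.8. The higher genes of smallest p, besides Mrpl43 and Mrpl14, were Mrpl12 (0.63 ± 0.31) and Mrpl50 (0.80 ± 0.40). Mrpl50 had 17.6 to 19.6 RPKM in 3 KO libraries and 55.0 in KO3, against 8.07 to 19.7 in WT.

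The KO libraries of the 2 lanes differed. The median of the large subunit genes within a library was 27.4, 15.4, 24.8 and 27.9 RPKM in WT1 to WT4, 37.1 and 36.8 in KO1 and KO2, and 21.7 and 22.4 in KO3 and KO4. That of the small subunit genes was 18.5, 16.8, 20.8 and 24.1 in WT, 27.5 and 26.7 in KO1 and KO2, and 18.5 and 18.8 in KO3 and KO4. The median of all genes tested stayed between 10.7 and 12.6 RPKM in every library. KO1 and KO2 thus had the highest medians of both subunits, and KO3 and KO4 lay inside the WT range. Summed over the 78 genes, the level was 2306 ± 231 RPKM in WT and 2603 ± 412 in KO (SD, n = 4), with 3112, 2762, 2265 and 2272 in KO1 to KO4.

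**Figure D3:**
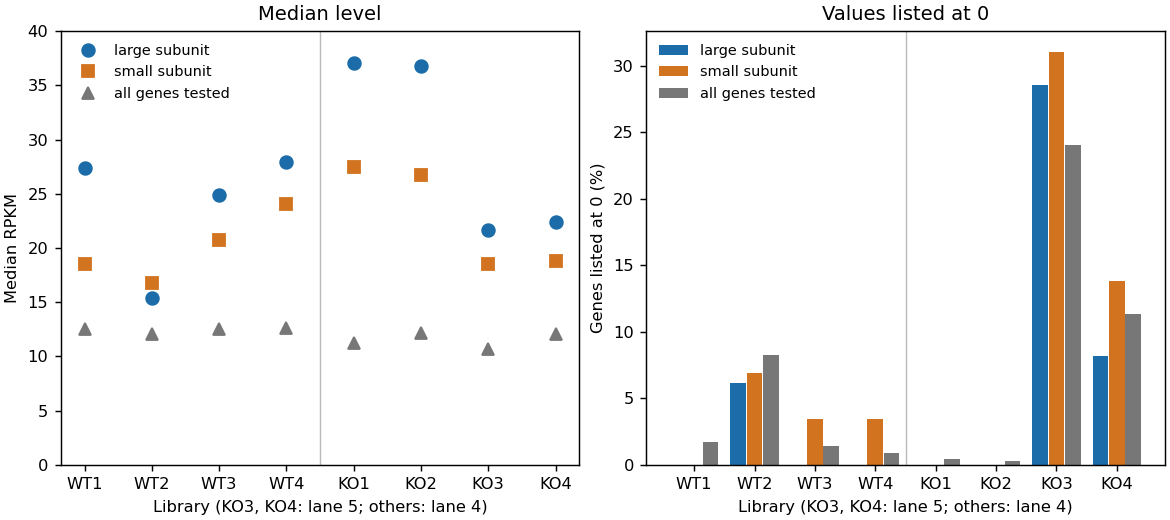
Left, median RPKM of the large subunit, small subunit and all tested genes in each library; right, the percent of each set listed at 0. KO1 and KO2 have the highest medians of both subunits (37.1 and 36.8, 27.5 and 26.7 RPKM), and KO3 has the most genes at 0.

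Counted by gene, KO1 was above the WT mean in 62 of 78 genes, KO2 in 52, KO3 in 27 and KO4 in 39. In 49 genes both KO1 and KO2 were above the WT mean, and in 13 both were below. KO3 was the highest of the 8 libraries in 18 genes and the lowest, ties at 0 counted, in 37. WT2 was the lowest in 21.

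Within lane 4 alone, WT1 to WT4 against KO1 and KO2, 62 of 78 differences were positive (79.5%), against 48.65% of all genes tested. The median log2 difference was 0.41 in the large subunit (41 of 49 positive) and 0.24 in the small subunit (21 of 29 positive), against -0.02 over all genes. limma called 0 of the 78, and 2 of all genes (0.0177%), at an adjusted p under 0.05. At an unadjusted p under 0.05, 9 of the 78 were higher (11.5%), against 4.95% of all genes, and 0 were lower, against 6.04%. Both KO libraries lay above all 4 WT libraries in 16 genes (20.5%), against 10.7% of all genes, and below them in 2 genes (2.56%), Mrps25 and Mrpl24, against 13.5%. In either direction that was 23.1% of the 78 and 24.2% of all genes. Without WT2 as well, 22 genes were above, against 14.5% of all, and 3 below, against 19.7%. Summed levels of the myeloid progenitor genes were also highest in KO1 and KO2, at 7627 and 3617 RPKM against at most 1790 in WT. In KO3 and KO4 they were above every WT library too, at 2770 and 2058 RPKM. The estimated depth was highest in KO1 and KO2. The part of the myeloid progenitor genes and of depth in the result was not tested.

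The 16 genes above WT in lane 4 were 10 named for the large subunit (Mrpl28, Mrpl33, Mrpl34, Mrpl38, Mrpl42, Mrpl43, Mrpl49, Mrpl51, Mrpl54 and Mrpl57) and 6 named for the small subunit (Mrps16, Mrps18a, Mrps18c, Mrps21, Mrps23 and Mrps31). Of the latter, the product of Mrps18a sits in the large subunit. Mrpl38 had 34.6 and 38.7 RPKM in KO1 and KO2 against 11.8 to 26.7 in WT, a log2 difference of 1.10 ± 0.32 (limma adjusted p = 0.302). Mrpl51 had 38.4 and 34.7 RPKM against 16.6 to 23.6 (0.80 ± 0.23, limma adjusted p = 0.302). Mrps18a had 51.3 and 50.3 RPKM against 15.7 to 31.3 (1.02 ± 0.29, limma adjusted p = 0.302). Mrpl38, Mrpl51 and Mrps18a were all at 0 in KO3, so over all 8 libraries their differences were negative, at -0.32, -0.81 and -0.92. The values of Mrpl43 in lane 4 were 45.2 and 39.3 RPKM against 13.5 to 27.9 (1.03 ± 0.33, limma adjusted p = 0.325).

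**Figure D4:**
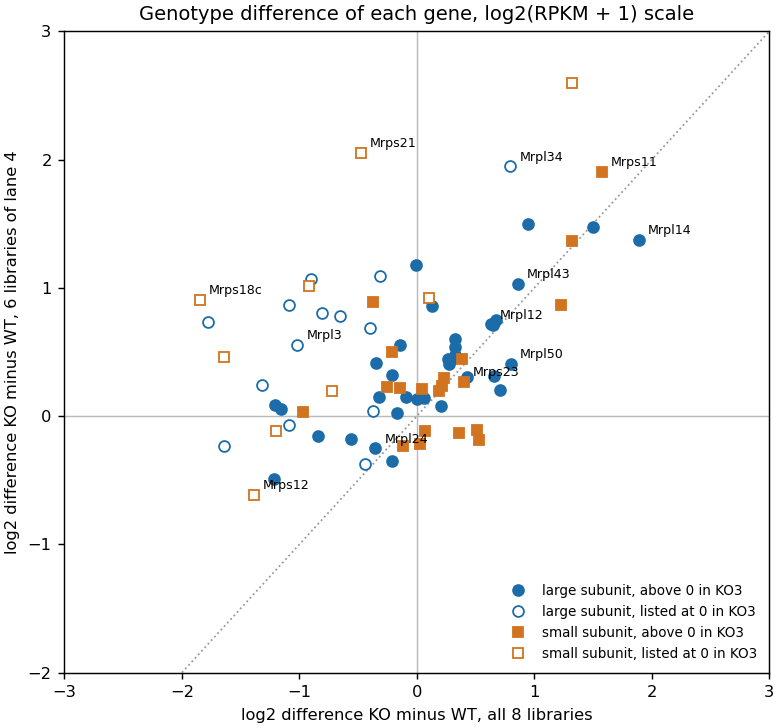
Log2 difference KO minus WT of each of the 78 genes, from all 8 libraries (x axis) and from the 6 libraries of lane 4 (y axis); open symbols are genes listed at 0 in KO3 and the dotted line marks equal values. In lane 4, 62 genes lie above 0, and the open symbols lie mostly to the left, 20 of 23 below 0 on the x axis.

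Weighting the libraries by limma's estimated quality called 164 of all genes tested (1.45%) and 0 of the 78. The KO libraries were weighted 6.503 in KO2, 1.502 in KO1, 0.351 in KO4 and 0.137 in KO3, the lowest of all. The KO side of the weighted results, here and below, thus rests mostly on KO2. Among the markers the weighting called Flt3 and Procr lower and Cebpa, Csf1r, Ctsg and Mpo higher in KO. The smallest limma adjusted p among the 78 was that of Mrpl43, 0.0595, with a log2 difference of 0.89. Without KO3, 51 of 78 differences were positive, with medians of 0.27 in the large and 0.10 in the small subunit against -0.05 over all genes, and Mrpl43 stood at 1.13 ± 0.29 (limma adjusted p = 0.360).

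KO3 listed many of these genes at 0. In KO3, 23 of the 78 genes (29.5%) were listed at 0, 14 of the large and 9 of the small subunit, against 24.05% of all genes tested. KO4 had 8 (10.3%) against 11.3%, WT2 had 5 (6.41%) against 8.22%, and KO1 and KO2 had none. All 8 genes at 0 in KO4 were also at 0 in KO3. The 23 genes had WT means from 0.888 to 45.6 RPKM, so the zeros were not limited to weakly expressed genes. Of the 23, 20 had a negative log2 difference over all libraries, which a 0 in 1 of 4 KO values favours by construction, and 18 had a positive one in lane 4. Of the 55 genes above 0 in KO3, 35 had a positive difference over all libraries, which that choice favours in turn, and 44 had one in lane 4.

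Mrpl3, a large subunit protein with a bacterial counterpart, shows the pattern, at 59.5, 12.1, 51.4 and 59.3 RPKM in WT and 68.1, 48.8, 0 and 42.6 in KO. Its log2 difference was -1.02 ± 1.26, and 0.56 in lane 4. Mrpl34 had 49.9, 44.7, 0 and 94.2 RPKM in KO, and a 0 in WT2 as well. Mrpl2 had 23.4 to 42.2 RPKM in WT libraries and 38.4, 35.8, 0 and 18.4 in KO. Mrps35 had 16.7 to 38.2 RPKM in WT libraries and 27.5, 18.4, 0 and 26.2 in KO. Mrpl16 had 8.08 to 30.6 RPKM in WT libraries and 37.1, 26.8, 0 and 0 in KO. Mrpl52 stood out in WT2, with 56.6 RPKM against 9.37 to 13.3 in the other WT libraries, and had 21.4, 39.0, 0 and 15.9 in KO. In each of these 6 genes KO1 and KO2 were at 18.4 RPKM or more while KO3 was at 0.

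The zeros of KO3 were also counted by level and transcript length. Among genes with a mean of 10 to 200 RPKM in the other 7 libraries, 9.22% of all (540 of 5856) and 18 of 70 genes of the mitochondrial ribosome (25.7%) were at 0. For transcripts under 1 kb the shares were 28.4% of all and 6 of 23, from 1 to 2 kb 15.4% and 5 of 28, and from 2 kb 5.11% and 7 of 19. The share thus fell with length among all genes and not among the few of the mitochondrial ribosome, a difference that was not tested. At a mean of 50 to 200 RPKM none of the 14 genes of the mitochondrial ribosome was at 0.

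**Figure D5:**
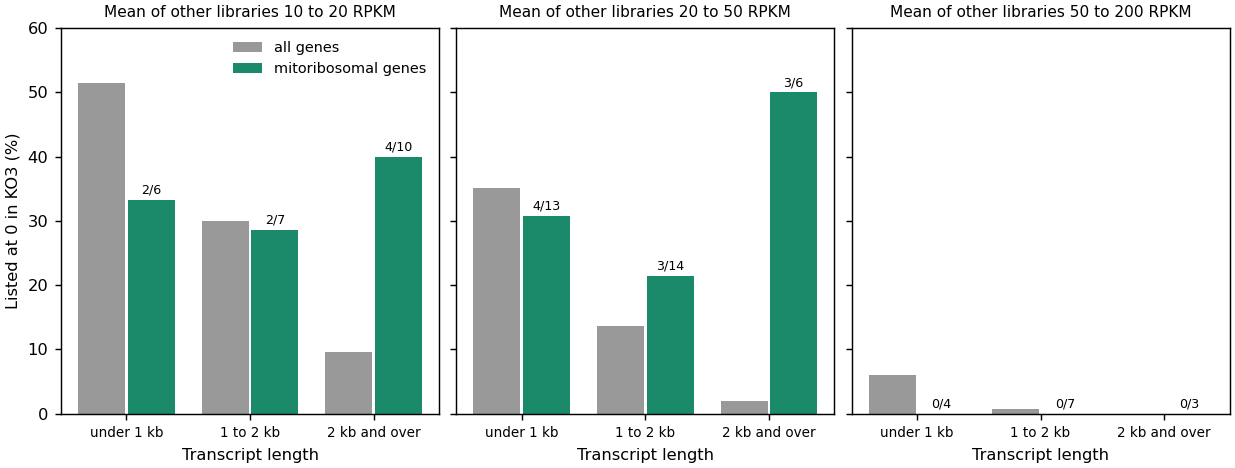
Percent of genes listed at 0 in KO3, for all genes (grey) and for genes of the mitochondrial ribosome (green, with counts), by transcript length within 3 ranges of the mean RPKM of the other 7 libraries. In all genes the share falls with length and level; the counts of the ribosomal genes are small, and none of 14 is at 0 above a mean of 50 RPKM.

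Genes that work with the mitochondrial ribosome were read from lists of known members. The counts of positive differences over all libraries stand beside 39.0% positive among all genes tested. Of 5 further proteins of the ribosome with other symbols (Aurkaip1, Chchd1, Dap3, Gadd45gip1 and Ptcd3), none passed the test and 3 had a positive difference. Aurkaip1 had 27.7 to 51.4 RPKM in WT, 67.3 and 70.3 in KO1 and KO2, and 35.5 and 24.7 in KO3 and KO4. Chchd1 was at 0 in KO3 and at 27.8 to 49.4 RPKM in the other KO libraries, against 12.7 to 29.4 in WT. Aurkaip1 was thus split by lane in KO, whereas in Chchd1 only KO3 was low, and its log2 difference of -0.59 became 0.74 without KO3.

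Of 27 assembly genes none passed the test and 14 had a positive difference, 4 of them at an unadjusted p under 0.05, where 2.77% of all genes tested were. With library weights 2 of the 27 were called, where 1.45% of all genes tested were: Eral1, a chaperone of the small subunit RNA, and Afg3l2, a subunit of the inner membrane protease that processes Mrpl32. Both were picked here for that call. Eral1 had 4.76, 9.72, 8.83 and 7.13 RPKM in WT and 13.5, 15.6, 21.7 and 20.7 in KO, without overlap (log2 difference 1.003 ± 0.22 with weights, limma adjusted p = 0.0498, and 0.490 without weights). Higher values in every KO library were found for 2.05% of all genes tested. Afg3l2 had 8.23 to 15.9 RPKM in WT libraries and 41.2, 28.9, 11.9 and 20.1 in KO (1.04 ± 0.22 with weights, limma adjusted p = 0.0423, and 0.665 without weights). Of the assembly genes 10 were at 0 in KO3 and 6 in KO4. Rbfa, which matures the small subunit RNA, had 54.4 ± 10.2 RPKM in WT and 88.3 ± 22.6 in KO, a log2 difference of 0.67 ± 0.24 (limma adjusted p = 0.627). Spg7 had 40.7 ± 5.56 RPKM in WT and 53.6 ± 21.0 in KO (0.33 ± 0.26, limma adjusted p = 0.749). Its difference in lane 4 was 0.059. Of 15 translation factors none passed and 7 were positive. Tufm, the mitochondrial elongation factor Tu, had 44.0, 38.9, 33.4 and 47.1 RPKM in WT and 69.4, 63.2, 33.8 and 40.5 in KO, again high in KO1 and KO2 only. Oxa1l, the membrane insertase that receives newly made chains, had 31.4 ± 5.80 RPKM in WT and 47.8 ± 10.6 in KO (0.58 ± 0.23, limma adjusted p = 0.634).

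Of 22 genes for mitochondrial aminoacyl-tRNAs none passed and 12 were positive. The list held synthetases, of which Gars and Kars also serve the cytosol, and the amidotransferase genes Gatb, Gatc and Qrsl1. Among the positive genes Lars2 had 98.1 ± 16.3 RPKM in WT and 119.3 ± 67.6 in KO. KO1 stood at 218.1 RPKM and the other KO libraries at 66.8, 88.7 and 103.5, and the log2 difference of 0.15 became -0.19 without KO1. Kars had 109.6 ± 22.9 RPKM in WT and 106.9 ± 22.65 in KO (-0.043 ± 0.22, limma adjusted p = 0.967). Of 9 genes for mitochondrial transcription and DNA none passed and 2 were positive, and 4 of the 9 were at 0 in KO3. Without KO3, 5 were positive. Tfam, which packages mitochondrial DNA, had 19.1 ± 2.02 RPKM in WT and 20.6 ± 2.20 in KO. Ssbp1 had 21.5 ± 1.34 RPKM in WT and 22.0 ± 9.31 in KO, with KO3 lowest at 10.2 (-0.073 ± 0.33, limma adjusted p = 0.961). Of 8 tested nuclear factors for mitochondrial genes none passed and 5 were positive. Myc had 99.2 ± 23.0 RPKM in WT and 141.7 ± 28.3 in KO (0.52 ± 0.22, limma adjusted p = 0.645), and Yy1, whose letters are in 12 of the promoters above, 57.6 ± 4.04 and 41.6 ± 6.09 (-0.47 ± 0.18, limma adjusted p = 0.634). All 4 KO values of Yy1 were below all WT values, a pattern shown by 3.88% of all genes tested.

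The cytosolic ribosome makes all other cell proteins. Of 84 tested cytosolic ribosomal protein genes 37 had a positive difference over all libraries (median -0.03) and 44 in lane 4 (52.4%, median 0.02). The nuclear-encoded subunits of the respiratory chain, which are assembled with the products of the mitochondrial ribosome, had 45 of 76 positive (median 0.08) and 58 in lane 4 (76.3%, median 0.23). Of both lists none passed the test over all libraries. The 2 highest cytosolic genes, Rps2 and Rpl41, had log2 differences of 0.25 ± 0.21 and 0.42 ± 0.17. Atp5b and Ndufa4, the 2 highest of the respiratory chain, had 0.20 ± 0.15 and -0.0076 ± 0.22. Relative to all genes the cytosolic median was 0.11 over all libraries and 0.04 in lane 4, against 0.08 and 0.38 for the 78 genes. Without KO3 the positive differences numbered 48 of 84, 51 of 76 and 51 of 78. Relative to all genes the medians without KO3 were 0.07 for the cytosolic genes and 0.30 for the 78. With library weights 1 of the 76 respiratory chain genes was called, where 1.45% of all genes tested were. It was Cox5b (0.93 ± 0.17 with weights, limma adjusted p = 0.0299, and 0.665 without weights). Among all genes tested, 39.0% were positive over all libraries and 48.65% in lane 4. The difference between lists was not tested.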

How the data were processed

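RNA was measured in 8 LSK libraries, 4 WT and 4 KO, grouped by the titles and genotypes in the labels. Per the labels' protocols, poly(A) RNA was fragmented with RNase III and ligated to adaptors. The submitters' processing notes name TopHat, edgeR and build mm9; their versions and roles, and the tool that counted reads, were not given in the sources used here. Each deposited table gives the authors' RPKM, 1 per Entrez gene, a unit read from the values because no label states it. Of 24112 genes, 24029 (99.66%) were matched to symbols in a RefSeq table of GRCm38.p6, and no gene coordinates are given besides promoters of that build.

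Depth was estimated from values up to 0.2 RPKM in 6679 genes with 1 transcript; in each library 52 to 140 such values were compared, and 52.8% to 62.9% came to whole reads within 0.03 reads, too few to recover counts. Genes reaching 1 RPKM in 4 or more libraries were tested on log2(RPKM + 1) with limma 3.58.1 in R 4.3.3 (trend, robust) and Benjamini-Hochberg adjustment at 0.05 over all genes tested; differences on this scale understate the change of low genes. The genes named were the 4 of smallest p in each direction per subunit, the 3 highest and 3 lowest, those without overlap, the 10 highest with a value at 0, the 3 most and 3 least variable in WT, the Mrps18 paralogs, Mrps30, Mrps36 and Mrpl12, and from each related list the 2 highest; other members named were chosen after their values were seen. The members and lists were chosen with earlier results of these data known. Motifs, opposite starts and the zeros by length were added after seeing the data. Lengths are those of the longest RefSeq-linked protein-coding transcript. Lane, filter, pseudocount, scaling, library weights, left-out libraries and a replicate block were tried as alternatives. One further stem cell marker is not reported here. The procedure was tested on simulated data.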

Additional observations from a re-analysis of the deposited data

Results flagged for a closer look

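Within a group of 4 libraries, a value was singled out where its gap to the nearest other value was an unusually large part of the group's range; chance alone singles out about 1 in 20 groups, and 80 groups were examined. The part of the range is given first for each gene, and levels are log2(RPKM + 1). In KO, 6 of these values were KO3 listed at 0. They were Mrps2 (0.967 of the range, the others at 3.76 to 3.89), Mrpl38 (0.908, others 4.82 to 5.31), Mrpl3 (0.892, others 5.45 to 6.11), Mrps35 (0.885, others 4.27 to 4.83), Mrps16 (0.857, others 4.005 to 4.67) and Mrpl34 (0.839, others 5.51 to 6.57). KO3 was high for Mrpl50, at 5.81 against 4.22 to 4.37 (0.906), and KO4 was high for Mrps23, at 6.45 against 5.72 to 5.83 (0.855). In WT, WT2 was low for Mrpl3, at 3.72 against 5.71 to 5.92 (0.906), and for Mrpl34, at 0 against 4.53 to 5.12 (0.885). WT2 was high for Mrps25, at 4.15 against 4.01 to 4.03 (0.83). All 11 values thus belong to KO3, KO4 or WT2, the libraries with the fewest genes above 0.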

How the results depend on the processing

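No alternative called a gene of the mitochondrial ribosome, and the design cannot separate lane from the KO libraries KO3 and KO4. The number of all genes called was 0 with the main settings, 1 with at least 1 RPKM in all 8 libraries, 2 in lane 4 alone, 3 without WT2, KO3 and KO4, 164 with library weights, and 0 to 2 leaving out each library in turn. Ribosomal genes without overlap numbered 2 (2.56%, against 5.92% of all genes), 18 in lane 4 (23.1% against 24.2%), 25 without those 3 libraries (32.1% against 34.2%), and 2 to 8 leaving out 1 (2.56% to 10.3%, against 8.02% to 12% of all genes). The large subunit median of -0.15 became 0.27 with the stricter filter, 0.41 in lane 4 or with lane as a covariate (0.43 relative to all genes), and 0.31 without the 3 libraries; leaving out 1 library it ranged from -0.29 to 0.27, reaching 0.27 without KO3. Relative to all genes the leave-one-out range was -0.15 to 0.32, and for the small subunit -0.07 to 0.10, or 0.06 to 0.24 relative to all genes. Large minus small was -0.18, and 0.081 with the stricter filter, 0.17 in lane 4 or with the covariate, 0.049 with weights, 0.11 without the 3 libraries, and -0.25 to 0.17 leaving out 1. In WT levels it was -0.01, 0.56 with the stricter filter, 0.43 without genes listed at 0, and 0.00066 to 0.17 leaving out 1. The stricter filter tests fewer genes. It drops all 23 genes at 0 in KO3, of which 20 had a negative difference over all libraries. A higher median difference is thus favoured by construction. For the other settings the cause was not tested.

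Of all 78 genes the sign turned in 34 in lane 4 (29 to positive), in 32 without WT2, KO3 and KO4 (27 to positive), in 26 with library weights (21 to positive), and in 36 with at least 1 library left out, 19 of them without KO3. Among the 35 genes named by rule, signs turned as follows (log2 difference). In lane 4 and with the covariate, which both take KO from KO1 and KO2: Mrpl21 0.053, Mrps22 0.46, Mrps27 0.033, Mrps18c 0.91, Mrps30 -0.12, Mrps2 0.19, Mrpl3 0.56, Mrpl2 0.24, Mrps18a 1.02, Mrpl51 0.80, Mrpl38 1.10, Mrpl52 0.78, Mrpl16 0.74 and Mrps25 -0.22. Without WT2, KO3 and KO4: Mrps14 -0.25, Mrps22 0.20, Mrps27 0.17, Mrps18c 0.69, Mrps2 0.026, Mrpl3 0.025, Mrpl2 0.38, Mrps18a 1.05, Mrps35 0.093, Mrpl51 0.70, Mrpl38 0.94, Mrpl52 1.35, Mrpl16 0.37 and Mrps25 -0.18. With library weights: Mrps18c 0.39, Mrps30 -0.10, Mrps2 0.042, Mrpl2 0.22, Mrps18a 0.91, Mrpl51 0.57, Mrpl38 0.92, Mrpl52 1.28, Mrpl16 0.13 and Mrps25 -0.24. With quantile normalization: Mrpl1 0.11, Mrps5 -0.025, Mrps30 -0.0024 and Mrpl38 0.036. With a pseudocount of 0.1, Mrpl15 had -0.012, and centred on genes above 20 RPKM, Mrpl15 had -0.026 and Mrps25 -0.0021.

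Leaving out 1 library in turn, the ranges of named genes that crossed 0 were those of Mrpl13 (-0.0017 to 0.48), Mrpl1 (-0.99 to 0.15), Mrpl15 (-0.18 to 0.27), Mrps5 (-0.074 to 0.10), Mrps30 (-0.24 to 0.27), Mrps36 (-0.23 to 0.44), Mrps2 (-1.07 to 0.23), Mrpl3 (-1.62 to 0.42), Mrpl34 (-0.42 to 2.28), Mrps18a (-1.57 to 0.34), Mrpl51 (-1.37 to 0.40), Mrpl38 (-0.81 to 0.96), Mrpl52 (-1.27 to 0.50), Mrps25 (-0.072 to 0.15) and Mrps18b (-0.049 to 0.60). Libraries with the same replicate number did not deviate together (correlations -0.0799 to -0.0382). Correlations this small cannot exclude that the numbers pair samples, and the main fit used no pairing. A fit with the replicate number as a block called 0 genes and 0 of the 78.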
